A study of Homo sapiens with 4 samples.

Results

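Focal adhesions are the sites at which integrins tie the matrix outside the cell to actin inside it. The 10 genes described here encode 3 kinases of these sites (PTK2, which is focal adhesion kinase, its relative PTK2B and SRC), the adaptors PXN and BCAR1, the linkers TLN1, VCL and ZYX, and the ILK and PARVA proteins of a further scaffold. They were chosen by name, with earlier results of these data known. Every probe set that the platform annotation gives to them was taken: 32 probe sets of 54613, each naming 1 gene only. PTK2 was a gene of interest to the study. Of these 32 probe sets, 27 had a mean log2 intensity of at least 5 over the arrays (an intensity of 32), the level minimum used throughout, and all 10 genes had at least 1 such probe set. In all, 13794 of 19775 genes reached this minimum.

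The study transfected 2 established human melanoma lines, A375 and SK-MEL-28, with a negative control siRNA or with an siRNA for ZIC5, a zinc-finger transcription factor, and took total RNA after 48 h. The series holds 4 arrays, 1 for each line and transfection: A375 with control siRNA, A375 with ZIC5 siRNA, SK-MEL-28 with control siRNA and SK-MEL-28 with ZIC5 siRNA. The groups share the transfection itself, and whether the ZIC5 siRNA was 1 sequence or a pool is not stated. Since each combination was measured on 1 array, the siRNA difference inside a line carries no replicate error, and only the agreement of the lines can serve as replication.

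At a focal adhesion, talin binds the integrin tail and opens sites for vinculin, which holds on to actin. Focal adhesion kinase phosphorylates itself when integrins cluster, recruits Src, and the pair phosphorylates paxillin and p130Cas, which steer Rac and cell movement. ILK, with PINCH and parvin, forms a parallel bridge to actin. In melanoma these proteins have been studied for their part in invasion and in survival under BRAF inhibition.

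Median intensity was between 38.4 and 39.4 on the 4 arrays. The targeted gene could not serve as a check of the labels: ZIC5 had 1 probe set with intensities of 16.8 and 14.1 in A375 cells and 21.4 and 15.5 in SK-MEL-28 cells (control, then ZIC5 siRNA), under the level minimum. Of 8 melanocyte lineage markers 7 were measured, and their summed intensity was 1751 and 2316 on the A375 arrays against 46522 and 43146 on the SK-MEL-28 arrays. MLANA was at 13.9 and 17.0 and PMEL at 32.4 and 35.9 on the A375 arrays, near the low end of the scale, while SOX10 was at 895 and 1660. Markers of epithelial (4), haematopoietic (4), endothelial (3) and fibroblast (5) cells were all measured, with 2, 2, 2 and 3 at the level minimum. Their summed intensities over the 4 arrays ranged from 144 to 417, from 178 to 233, from 100.2 to 153 and from 257 to 1129. The fibroblast sum was lower with ZIC5 siRNA in both lines, 444 and 257 in A375 cells and 1129 and 769 in SK-MEL-28 cells, and its part in the results below was not tested. LUM alone, singled out after its values were seen, read 162 and 14.9 in A375 cells and 875 and 498 in SK-MEL-28 cells, and the 4 other fibroblast markers summed to 282 and 242 in A375 cells and to 254 and 272 in SK-MEL-28 cells. In these bulk samples fewer cells of a type and less RNA per cell cannot be told apart. The fibroblast markers COL1A2 (24.7 to 26.6) and PDGFRA (15.3 to 18.9) were under the level minimum. EPCAM (12.7 to 13.8) and PTPRC (5.4 to 7.7) were near the bottom of the scale on every array. Some other markers of these lists were brighter. KRT14 read 358 and 320 in A375 cells and 32.1 and 42.5 in SK-MEL-28 cells. CD79A read from 97.3 to 139, COL1A1 from 152 to 190 and PECAM1 from 56.9 to 88.3 over the 4 arrays.

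The first question was which focal adhesion transcripts differed when ZIC5 was targeted. Vinculin stood alone: VCL was 2.51-fold lower in A375 cells and 2.39-fold lower in SK-MEL-28 cells with ZIC5 siRNA, and it was the only member to differ by 2-fold or more in either line, where 8.95% and 2.89% of all genes did so. The other 9 members differed by less than 0.5 on the log2 scale in both lines, as did 63.0% of all genes at the level minimum. PTK2 was 1.39-fold and 1.34-fold higher. Among all genes, 5.05% were at least 2-fold lower in A375, 2.12% in SK-MEL-28 and 1.15% in both, where the members' count was 1 of 10. The members' median difference was 0.045 for A375 and 0.0028 for SK-MEL-28, and over all genes it was -0.014 and 0.0015. The sign of the difference was the same in both lines for 7 of 10 members and for 64.0% of all genes. No gene of the 13794 passed the test of the siRNA effect over both lines (limma with the line as a block, Benjamini-Hochberg adjusted p under 0.05), where the lowest adjusted p was 0.268 and 1824 genes (13.2%) had an unadjusted p under 0.05.

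**Figure D1:**
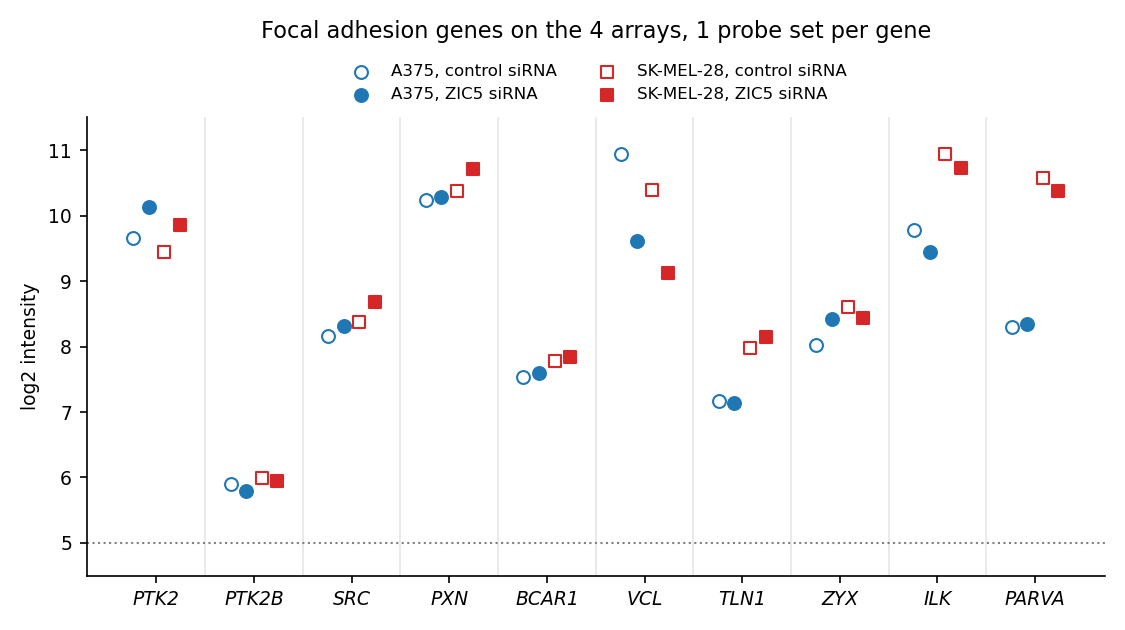
Log2 intensity (vertical axis) of the 10 focal adhesion genes on the 4 arrays, each gene by its brightest probe set, with blue circles for A375, red squares for SK-MEL-28, open symbols for control siRNA, filled symbols for ZIC5 siRNA, and the level minimum of 5 as a dotted line. Heights are not comparable between genes; within genes, VCL shows both filled symbols below both open ones, and PARVA shows both red squares well above both blue circles.

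Vinculin, the actin-binding reinforcement of integrin and cadherin junctions, had an intensity of 1960 on the A375 control array and 780 on the A375 ZIC5 siRNA array. The SK-MEL-28 arrays read 1336 and 559 in the same order, which is used for each pair of values below. Both ZIC5 siRNA arrays lay below both control arrays, a pattern shown by 14.0% of all genes and by VCL alone among the members. The log2 differences were -1.33 and -1.26, which placed VCL at percentile 2.09 of all genes in A375 cells and 1.06 in SK-MEL-28 cells. Over both lines the mean difference was -1.29 (SE 0.15, limma, 2 lines), with an adjusted p of 0.268 and an unadjusted p of 0.00113. The value rests on the brighter of 2 VCL probe sets. The dimmer one had intensities of 14.3 and 12.8 in A375 cells and 14.4 and 11.1 in SK-MEL-28 cells, under the level minimum, and its differences of -0.17 and -0.38 had the same sign.

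Talin 1 and zyxin occupy the same structure as vinculin, and their transcripts did not share its pattern. TLN1, which couples integrin tails to actin and recruits vinculin, had intensities of 144 and 141 in A375 cells and 253 and 284 in SK-MEL-28 cells, differences of -0.02 and 0.17. Its 2 other probe sets differed by 0.18 and 0.36 in A375 cells and by 0.02 and 0.16 in SK-MEL-28 cells. ZYX, a LIM-domain protein that gathers at stretched actin fibres, had intensities of 259 and 343 in A375 cells and 388 and 345 in SK-MEL-28 cells. Its differences, 0.41 and -0.17, had opposite signs in the lines. The second ZYX probe set gave 0.35 and -0.20, so the sign in each line was shared by both probe sets. Over both lines neither gene passed: the limma mean differences were 0.07 (SE 0.18, adjusted p 0.873) for TLN1 and 0.12 (SE 0.23, adjusted p 0.828) for ZYX.

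The 250 bases before the start sites of these 3 linker genes are given because VCL was lower in both lines and its partners were not. They are from RefSeq on GRCh38.p14 and read 5′ to 3′ on the strand of the gene. The set of start-site windows at hand covered 6 of the 10 members (11 windows). Capitals mark the GC box GGGCGG, to which Sp factors bind, and the element CATTCC, known as the MCAT site of TEAD factors, on either strand. No capital run belongs to both.
VCL, chr10:73997866-73998115, plus strand: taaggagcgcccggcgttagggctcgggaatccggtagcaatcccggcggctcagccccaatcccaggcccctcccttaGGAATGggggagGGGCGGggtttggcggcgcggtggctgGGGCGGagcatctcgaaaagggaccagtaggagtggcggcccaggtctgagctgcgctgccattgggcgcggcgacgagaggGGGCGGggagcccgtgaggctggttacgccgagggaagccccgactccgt
TLN1, chr9:35732196-35732445, minus strand: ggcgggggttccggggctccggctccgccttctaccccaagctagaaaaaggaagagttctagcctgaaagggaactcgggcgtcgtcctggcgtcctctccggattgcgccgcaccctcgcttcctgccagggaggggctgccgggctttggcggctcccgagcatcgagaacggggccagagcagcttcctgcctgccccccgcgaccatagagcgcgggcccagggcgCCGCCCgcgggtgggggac
ZYX, chr7:143381095-143381344, plus strand: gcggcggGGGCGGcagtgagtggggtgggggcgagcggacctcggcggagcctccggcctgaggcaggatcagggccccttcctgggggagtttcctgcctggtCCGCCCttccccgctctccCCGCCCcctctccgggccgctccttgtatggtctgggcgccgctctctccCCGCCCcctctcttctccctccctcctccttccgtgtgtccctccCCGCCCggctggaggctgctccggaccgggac
The VCL window held 1 MCAT element, on the opposite strand and from 171 to 166 bases before the start site, and the TLN1 and ZYX windows held none. That element occurred in 11.9% of all 35116 windows of the same length, and among the members also in 1 of the 2 PXN windows. GC boxes numbered 3 in VCL, 1 in TLN1 and 5 in ZYX, and 42.6% of all windows held at least 1. The core CCTGCTG, reported for ZIC family factors, was in none of these 3 windows and in 8.48% of all windows. Among the members it was found in 1 of 5 BCAR1 windows. The CArG box of serum response factor was in no window of a member and in 1.16% of all windows. GC content was 70.4% for VCL, 70.8% for TLN1 and 74.8% for ZYX. These are matches of letters only, and binding was not measured.

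**Figure D2:**
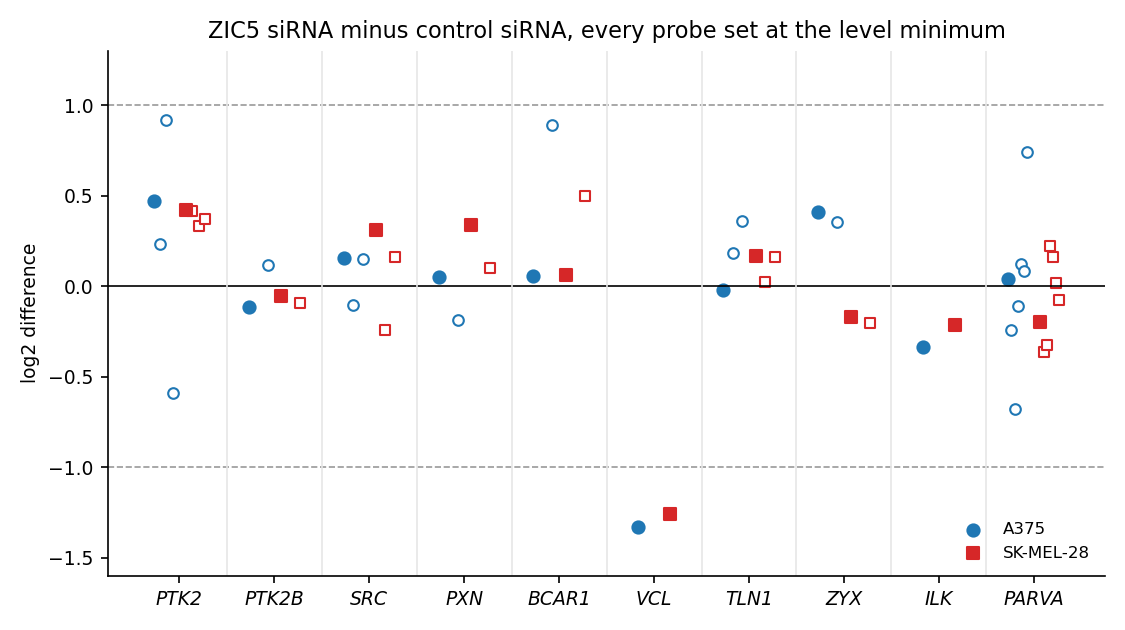
Log2 difference of ZIC5 siRNA minus control siRNA (vertical axis) for each of the 27 probe sets at the level minimum, by gene, with blue circles for A375, red squares for SK-MEL-28, filled symbols for the brightest probe set of the gene and dashed lines at a 2-fold difference. VCL lies beyond the lower dashed line in both lines, and every other probe set lies between the dashed lines.

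Focal adhesion kinase was next. PTK2 read 808 on the control array and 1120 on the ZIC5 siRNA array of A375, and 696 and 931 on those of SK-MEL-28. Both ZIC5 siRNA arrays lay above both control arrays, as they did for 11.0% of all genes and for PTK2 alone among the members. The log2 differences of 0.47 and 0.42 were at percentiles 83.6 and 91.2 of all genes, and their mean of 0.44 (SE 0.15, limma, 2 lines) had an adjusted p of 0.374 and an unadjusted p of 0.0457. The other PTK2 probe sets were dimmer. The second brightest read 260 and 306 in A375 cells and 199 and 265 in SK-MEL-28 cells, differences of 0.23 and 0.42. The third differed by 0.92 and 0.33. The dimmest, with intensities of 34.4 and 22.9 in A375 cells and 50.7 and 65.6 in SK-MEL-28 cells, differed by -0.59 and 0.37. In SK-MEL-28 all 4 probe sets were therefore higher, between 0.33 and 0.42, and in A375 3 of 4 were, with a range from -0.59 to 0.92. These are transcript levels, and phosphorylation of the kinase was not measured.

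PTK2B and SRC showed smaller differences. PTK2B, the calcium-responsive relative of focal adhesion kinase also called Pyk2, had low intensities of 59.8 and 55.2 in A375 cells and 63.9 and 61.6 in SK-MEL-28 cells. Its differences were -0.11 and -0.05, and its second probe set differed by 0.12 and -0.10. SRC, the kinase that docks on phosphorylated focal adhesion kinase, had intensities of 285 and 317 in A375 cells and 332 and 411 in SK-MEL-28 cells, differences of 0.15 and 0.31. Only 3 of 7 SRC probe sets reached the level minimum, and 2 of these 3 were higher with ZIC5 siRNA in each line, while the other differed by -0.10 and -0.24. The limma mean differences were -0.08 (SE 0.15, adjusted p 0.820) for PTK2B and 0.23 (SE 0.18, adjusted p 0.585) for SRC. For PTK2B and SRC the control and ZIC5 siRNA intensities overlapped across the lines.

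The adaptors PXN and BCAR1 also stayed inside the 2-fold range. Paxillin, the LIM-domain scaffold phosphorylated by focal adhesion kinase and Src, had intensities of 1208 and 1250 in A375 cells and 1334 and 1686 in SK-MEL-28 cells. Its differences were 0.05 and 0.34, with -0.19 and 0.10 on the dimmer probe set. BCAR1, which encodes p130Cas, a docking protein whose stretching exposes phosphorylation sites, had intensities of 186 and 193 in A375 cells and 221 and 230 in SK-MEL-28 cells, differences of 0.05 and 0.06. Its dimmer probe set read 37.4 and 69.2 in A375 cells and 50.6 and 71.5 in SK-MEL-28 cells, differences of 0.89 and 0.50. The BCAR1 probe sets thus had the same sign but not the same size, and their averages were 0.47 and 0.28. Limma gave a mean difference of 0.19 (SE 0.16, adjusted p 0.605) for PXN and of 0.06 (SE 0.17, adjusted p 0.899) for BCAR1.

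ILK and PARVA belong to a further scaffold between the beta integrin tail and actin. ILK, a pseudokinase, had 1 probe set, with intensities of 882 and 700 in A375 cells and 1975 and 1702 in SK-MEL-28 cells. It was lower with ZIC5 siRNA by a difference of -0.33 in A375 cells and -0.21 in SK-MEL-28 cells (mean -0.27, SE 0.15, limma adjusted p 0.468). PARVA, alpha-parvin, had intensities of 315 and 324 in A375 cells and 1518 and 1324 in SK-MEL-28 cells, differences of 0.04 and -0.20 (mean -0.08, SE 0.17, limma adjusted p 0.850). All 7 PARVA probe sets reached the level minimum, and they did not share a sign: 4 were higher in A375 cells and 3 in SK-MEL-28 cells, with ranges from -0.68 to 0.74 and from -0.37 to 0.22.

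The lines themselves were then compared. A majority of the members were brighter in SK-MEL-28: for 8 of 10 genes both SK-MEL-28 arrays lay above both A375 arrays, as for 30.7% of all genes, and the exceptions were PTK2 and VCL. For 0 members did both SK-MEL-28 arrays lie below both A375 arrays, against 32.9% of all genes. Under control siRNA the median line difference of the members was 0.23, and that of all genes -0.03. PARVA and ILK were at least 2-fold higher in SK-MEL-28 and no member was 2-fold higher in A375, against 11.2% and 11.0% of all genes. In the limma fit with the siRNA as a block, PARVA, ILK and TLN1 passed at an adjusted p under 0.05, all higher in SK-MEL-28, where 13.4% of all genes passed in that direction and 14.2% in the other. In that fit the control and ZIC5 siRNA arrays of a line stand in for replicates of it. The line difference pools all that separates these cell lines and the arrays they were run on.

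PARVA had the greatest line difference of the members. Its brightest probe set was 4.82-fold higher in SK-MEL-28 with control siRNA and 4.08-fold higher with ZIC5 siRNA, and the limma mean was 2.15 (SE 0.17, adjusted p 0.00690). All 7 probe sets had that sign in both transfections, from 0.67 to 2.27 with control siRNA and from 0.71 to 2.15 with ZIC5 siRNA, and the limma mean was 1.51 with probe sets averaged and 1.06 with those ending in _at alone. Its binding partner ILK was 2.24-fold and 2.43-fold higher in SK-MEL-28 (mean 1.22, SE 0.15, limma adjusted p 0.0141). TLN1 was 1.76-fold and 2.01-fold higher (mean 0.91, SE 0.18, limma adjusted p 0.0360), but its 2 dimmer probe sets differed by 0.29 and 0.47 with control siRNA, and with the probe sets averaged the call was lost (mean 0.50, limma adjusted p 0.0762).

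The remaining members differed less between the lines. ZYX was 1.50-fold higher in SK-MEL-28 with control siRNA, and with ZIC5 siRNA, after siRNA differences of opposite sign, the lines differed by 0.01 on the log2 scale. VCL was 1.47-fold and 1.40-fold higher in A375 (mean -0.52 for SK-MEL-28 minus A375, SE 0.15, limma adjusted p 0.0767), and PTK2 was 1.16-fold and 1.20-fold higher in A375 (mean -0.24, SE 0.15, limma adjusted p 0.312). For PTK2 3 of 4 probe sets had that sign under control siRNA, and averaged they gave a limma mean of 0.03. SRC, PXN, BCAR1 and PTK2B had limma mean line differences between 0.13 and 0.30, with adjusted p-values from 0.253 to 0.583.

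**Figure D3:**
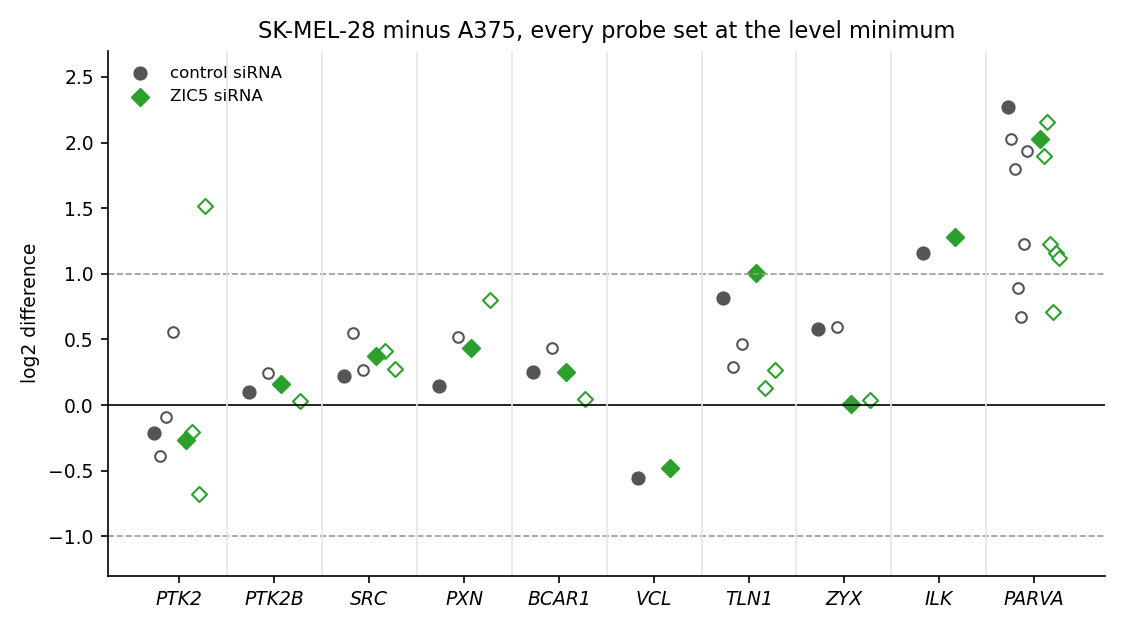
Log2 difference of SK-MEL-28 minus A375 (vertical axis) for the 27 probe sets at the level minimum, by gene, with grey circles for control siRNA, green diamonds for ZIC5 siRNA, filled symbols for the brightest probe set of the gene and dashed lines at a 2-fold difference. All 7 PARVA probe sets lie above 0 in both transfections, between 0.67 and 2.27, and the single VCL probe set lies below 0.

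The members were finally set beside 67 other adhesion genes, listed by role, of which 57 were measured at the level minimum, 4 were under it and 6 are not analysed here. These lists, too, were chosen with earlier results of these data known. In A375 cells 3 of the 57 passed the 2-fold rule upwards and 6 downwards, against 3.89% and 5.05% of all genes. In SK-MEL-28 cells the counts were 0 and 5, against 0.776% and 2.12%. FERMT2, TGFB1I1 and ENAH, 3 of the 57, were at least 2-fold lower in both lines (1.15% of all genes were), and none was 2-fold higher in both (0.312% of all genes were). None of the 57 passed the limma test of the siRNA effect, and 9 had an unadjusted p under 0.05, where 13.2% of all genes did. The median difference over the 57 genes was -0.12 in A375 cells and -0.05 in SK-MEL-28 cells, beside -0.014 and 0.0015 over all genes, and with probe sets averaged the SK-MEL-28 median was 0.02.

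FERMT2, ENAH and TGFB1I1 were, like VCL, at least 2-fold lower in both lines. FERMT2, which encodes kindlin-2, an integrin activator that works with talin, had intensities of 641 and 199 in A375 cells and 995 and 357 in SK-MEL-28 cells, 3.23-fold and 2.79-fold lower. All 3 of its probe sets were lower in both lines, from -1.69 to -0.46 in A375 cells and from -1.48 to -1.01 in SK-MEL-28 cells. ENAH, or Mena, which lengthens actin filaments at adhesions, had intensities of 1871 and 724 in A375 cells and 1772 and 459 in SK-MEL-28 cells, 2.58-fold and 3.86-fold lower, with all 5 probe sets lower in each line. With probe sets averaged, FERMT2 differed by -0.87 and -1.19 and ENAH by -1.10 in SK-MEL-28. TGFB1I1, or Hic-5, a paxillin relative, had intensities of 726 and 304 in A375 cells and 805 and 251 in SK-MEL-28 cells on its single probe set, 2.39-fold and 3.21-fold lower. Each had a limma adjusted p of 0.268, the lowest of any gene, which 190 genes shared. Of the 3 TGFB1I1 start-site windows 1 held a CArG box, and the FERMT2 and ENAH windows held none. The MCAT element found in the VCL window was in no window of FERMT2, ENAH or TGFB1I1.

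By role, the paxillin and Cas relatives had 13 genes measured, with TGFB1I1 2-fold lower in both lines and NEDD9, a Cas relative known from melanoma metastasis, lower by a difference of -0.66 in A375 cells and -1.38 in SK-MEL-28 cells. Only 2 of 4 NEDD9 probe sets were lower in A375 cells and 3 of 4 in SK-MEL-28 cells, and with probe sets averaged NEDD9 differed by -0.18 and -0.58. Of 11 talin and kindlin genes, TLN2 and FERMT1 were 3.51-fold and 2.85-fold higher in A375 cells, against differences of -0.19 (0.10 with probe sets averaged) and 0.22 in SK-MEL-28 cells. FERMT1, kindlin-1, had intensities of 510 and 1456 in A375 cells but only 29.8 and 34.8 in SK-MEL-28 cells. TLN2 had intensities of 100.3 and 352 in A375 cells and 44.5 and 39.1 in SK-MEL-28 cells. Of 10 kinases, phosphatases and inhibitors around focal adhesion kinase and Src, the Src-family kinase FYN was 2.14-fold higher in A375, with all 5 probe sets higher, and 1.21-fold higher in SK-MEL-28. With its 5 probe sets averaged the A375 difference was 0.73, and with those ending in _at alone 0.59. The phosphatase gene PTPN11, which encodes SHP2, was 2.06-fold and 1.92-fold lower, with 4 of 4 probe sets lower in A375 cells and 3 of 4 in SK-MEL-28 cells, and with probe sets averaged it differed by -0.84 in A375.

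In the ILK, PINCH and parvin list 4 genes were measured, and PARVB, beta-parvin, was 2.04-fold lower in A375 cells and 1.13-fold lower in SK-MEL-28 cells, with 5 of 5 probe sets lower in each. Like PARVA it was higher in SK-MEL-28 (limma mean 2.74, SE 0.28, adjusted p 0.0107), with 4 of 5 probe sets of that sign under control siRNA. With probe sets averaged, PARVB differed by -0.86 between the siRNAs in A375, under 2-fold, and by a limma mean of 1.75 between the lines (adjusted p 0.0100). The 5 zyxin family genes held no 2-fold difference, and TRIP6 had the largest mean, from -0.46 and -0.67. All 5 were lower in A375 cells and 3 in SK-MEL-28 cells, where 51.2% and 49.6% of all genes were lower by any amount. Of 14 actin linkers and scaffolds, CAV1, the coat protein of caveolae, was 2.11-fold lower in A375 cells and 1.25-fold lower in SK-MEL-28 cells. SORBS2, a vinculin-binding adaptor, had intensities of 542 and 686 in A375 cells and 60.2 and 26.1 in SK-MEL-28 cells, the last under the level minimum. It differed by 0.34 and -1.21, with 4 of 6 probe sets higher in A375 cells and 6 of 6 lower in SK-MEL-28 cells, over a range that reached -3.69. Averaged, its probe sets gave 0.00 and -2.36.

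**Figure D4:**
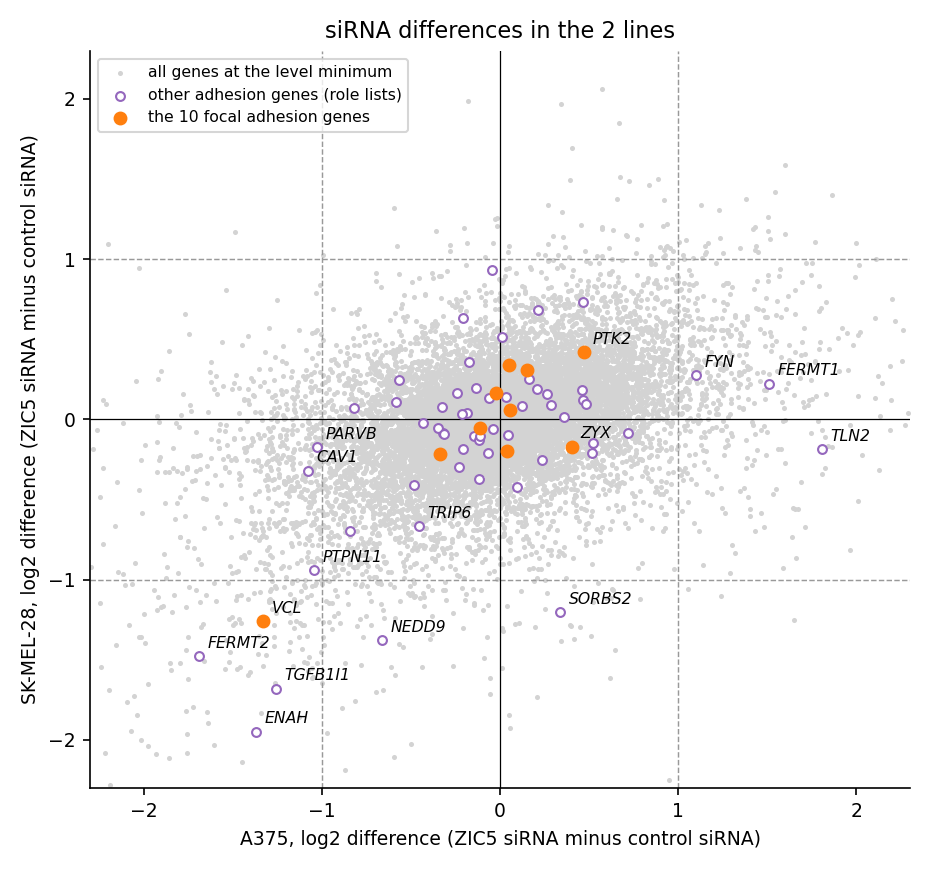
Log2 difference of ZIC5 siRNA minus control siRNA in A375 (horizontal axis) and in SK-MEL-28 (vertical axis), with the 10 members as orange points, 57 other adhesion genes as open purple circles and all genes at the level minimum in grey, of which 76 lie outside the axes; dashed lines mark 2-fold differences. VCL lies at the lower left with FERMT2, TGFB1I1 and ENAH, and the other 9 members lie inside the dashed square.

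Genes with the pattern most like that of VCL were sought by their distance from it over 3 log2 differences (the siRNA difference in each line and the line difference under control siRNA), taken from the 4 arrays. The nearest 5 were HSDL1, GLIPR1, RPGRIP1L, FAM20B and CARD6, at distances from 0.15 to 0.26. HSDL1 differed by -1.22 in A375 cells and -1.17 in SK-MEL-28 cells, with -0.58 between the lines, where VCL had -0.55. For PTK2 the nearest were UBFD1, EXOG, LTO1, SLC35F2 and PLEC, at distances from 0.03 to 0.07. PLEC, which encodes the cytoskeletal linker plectin, had intensities of 792 and 1090 in A375 cells and 678 and 864 in SK-MEL-28 cells, differences of 0.46 and 0.35.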

How the data were processed

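Biotinylated cRNA from 100 ng of total RNA per sample was put on 4 arrays, per the labels' protocols. The deposited intensity values were made by the authors by RMA, and the submitters' processing notes name Affymetrix Expression Console (its version is not stated). Their range of 2.8 to 22531 is a linear scale, and log2 was taken without a pseudocount. The number of arrays limits the precision.

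Genes were named from the platform annotation (41091 probe sets with 1 gene, 1801 with several, 11721 with none; 41037 matched RefSeq by entrez ID, 0 with a changed symbol) and read from the probe set with the highest mean, at a mean log2 intensity of at least 5. A difference of 1 log2 unit (2-fold) is a size rule with no test. An additive fit of siRNA and line (limma 3.58.1, R 4.3.3, eBayes with trend, 1 residual and 2.85 prior degrees of freedom) covered all 13794 genes. No interaction could be fitted. The 1 residual degree of freedom is the difference between the siRNA differences of the lines, so a line-dependent response is counted as error. In the line test the control and ZIC5 siRNA arrays of a line serve as its replicates. Labels do not say whether cultures were separate, so p-values reflect these arrays alone, and their spread may be technical.

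Members, role lists and tests were chosen with earlier results of these data known, and the motifs after values were seen. Named genes were the members, up to 4 genes per role list that were 2-fold different in either line (the largest where none was), and the 5 genes nearest to VCL and to PTK2. Alternatives were no level minimum, a minimum of 7, log2 values under 5 set to 5, quantile normalization, cyclic loess, the mean of probe sets, probe sets ending in _at alone, and eBayes without trend.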

Additional observations from a re-analysis of the deposited data

Results flagged for a closer look

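Of the members and the other adhesion genes named above, 5 had siRNA differences of opposite sign in the 2 lines. With 1 array per group the difference between the lines was not tested. ZYX differed by 0.41 in A375 cells and -0.17 in SK-MEL-28 cells, with both probe sets of that sign in each line. TLN1 differed by -0.024 and 0.17, and PARVA by 0.041 and -0.20, against a median SD of 0.25 (A375) and 0.15 (SK-MEL-28) between probe sets of a gene. Among the other adhesion genes named above, TLN2 differed by 1.81 and -0.19 and SORBS2 by 0.34 and -1.21. Further genes of the role lists, not named above, also had opposite signs, such as TNS3 (-0.57 and 0.25) and KANK2 (-0.21 and 0.63). With probe sets averaged 3 of the 5 no longer had opposite signs: TLN1 differed by 0.17 and 0.12, PARVA by -0.0071 and -0.081, and TLN2 by 1.37 and 0.10. SORBS2 then differed by 0.00 and -2.36. Opposite signs were common: 64.0% of all genes had the same sign in both lines.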

How the results depend on the processing

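VCL kept its direction in every alternative that measured it, between -1.36 and -1.33 in A375 cells and between -1.28 and -1.25 in SK-MEL-28 cells. Its limma adjusted p ranged from 0.113 to 0.373. With 1 VCL probe set at the level minimum, all of these read the same probe set. Only quantile normalization and cyclic loess could change its differences, so the kept direction is no separate support. PTK2 ranged from 0.26 to 0.47 and from 0.38 to 0.42, with an adjusted p from 0.293 to 0.467. With only probe sets ending in _at, 0 members were 2-fold different in A375 cells and 0 in SK-MEL-28 cells, since VCL and ZYX have no such probe set. With the mean of probe sets, 5 of the 57 other adhesion genes were 2-fold different in A375, where 9 were in the reported setting. The others gave 9, or 8 of the 47 genes measured with a minimum of 7 or with probe sets ending in _at. For SK-MEL-28 the count was 5 of 57 in the reported setting. It was 4 with log2 values under 5 set to 5, 4 with probe sets averaged and 4 of 47 with probe sets ending in _at. With probe sets averaged, FERMT2 differed by -0.87 in A375 and NEDD9 by -0.18 and -0.58. Under the same setting SORBS2 differed by 0.00 and -2.36. The limma call of TLN1 between the lines was lost with the mean of probe sets (adjusted p 0.0762) and with probe sets ending in _at (0.407). No alternative called a gene for the siRNA effect, the lowest adjusted p lying between 0.109 and 0.373. Of 789 further comparisons of single genes with an alternative, 745 stayed on the same side or within the spread between probe sets, 32 moved, 9 gained a limma call and 3 lost one. In 17 of the 789 the sign turned, each time from a value of at most 0.24 in size that was neither 2-fold nor called, among them PARVA in SK-MEL-28 (0.22 with probe sets ending in _at) and TLN1 in A375 (0.17 with the mean of probe sets). The members' median in A375 also turned, to -0.014 with quantile normalization. Their median in SK-MEL-28, 0.0028 in the reported setting, turned to -0.0040 with quantile normalization, -0.0058 with cyclic loess and -0.00016 with probe sets averaged. It was 0.14 with probe sets ending in _at.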
